A study of Mus musculus with 30 samples.

Results

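Expression of the collagen genes was followed across 30 mouse RNA-seq libraries, in which fibroblasts were reprogrammed to pluripotent cells by transcription factors or by small molecules. The family was taken as every gene whose symbol reads Col, digits, the letter a and digits with nothing after them, and 44 of the 55401 gene identifiers of each table carried such a symbol, on 15 chromosomes. By the structure of their proteins, 11 are fibrillar, 6 form basement membrane networks, 6 form beaded filaments, 9 are fibril-associated collagens with interrupted triple helices (FACIT), 3 form hexagonal networks, 1 forms anchoring fibrils, 4 are transmembrane and 2 are multiplexins, while Col26a1 and Col28a1 were left unclassed.

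The libraries formed 15 groups of 2. In the 4-factor arm, mouse embryonic fibroblasts (MEFs) of genotype 129XOG2 were sampled on day 0 and, after lentivirus for Oct4, Sox2, Klf4 and c-Myc and in medium with 2 µg/ml doxycycline, on days 2, 4 and 7, followed by induced pluripotent stem cells (iPSCs) of the same genotype. The CF1 chemical arm began with MEFs of genotype CF1, which were sampled on day 0, in chemical reprogramming medium on days 4, 8 and 12, and as iPSCs. In the removal experiment, OG2 MEFs (genotype 129XOG2) went through chemical reprogramming, a small molecule was withdrawn from day 8 to day 12, and the groups -CHIR, -PD, -VC, -WS and CT were all collected on day 12. The labels expand neither CT nor VC nor WS. CT was taken as the group with nothing withdrawn because its title has no minus sign. Feeder cells supported both iPSC groups, whose medium held LIF with CHIR99021 at 3 µM and PD0325901 at 0.2 µM, and the labels do not say that feeders were removed before RNA was isolated.

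Collagen chains are hydroxylated on proline and lysine in the endoplasmic reticulum and wind into triple helices, which are trimmed, assembled and cross-linked outside the cell. Types I, III and V build the fibrils of connective tissue, type IV the sheets of basement membranes and type VI the beaded filaments around cells, and FACIT collagens coat the fibrils. Fibroblasts are a main source of types I, III, V and VI.

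Promoter sequences of 6 members are printed because the results below turn on these genes: Col1a2 and Col3a1 are among the most abundant members, Col5a1 parts from its partner Col5a2, Col15a1 and Col18a1 are the multiplexins, and Col8a1 had the largest fall among the intermediates. Each lies upstream of a RefSeq transcription start (build GRCm38.p6), is written 5′ to 3′ on the gene's strand and leaves out bases of annotated exons, and capitals mark the CCAAT box (CCAAT), the GC box (GGGCGG) and the TATA box (TATAAA) or their reverse complements. The Col1a2 bases are chr6:4505370-4505492 on the plus strand, which lie outside exons but within the gene as GENCODE annotates it, from 4504814, with a GGGCGG box starting at -205 and another at -188 from the start site. The Col3a1 bases are chr1:45311288-45311537 on the plus strand, with TATAAA at -117, and the Col5a1 bases are chr2:27886175-27886424 on the plus strand, with GGGCGG boxes at -205 and -73. The Col15a1 bases are chr4:47207762-47208011 on the plus strand and held none of the motifs. The Col18a1 bases are chr10:77166549-77166780 on the minus strand, with CCAAT at -210 and GGGCGG boxes at -61, -43 and -33, and the Col8a1 bases are chr16:57754738-57754987 on the minus strand, with GGGCGG boxes at -170, -73, -66 and -23.
Col1a2: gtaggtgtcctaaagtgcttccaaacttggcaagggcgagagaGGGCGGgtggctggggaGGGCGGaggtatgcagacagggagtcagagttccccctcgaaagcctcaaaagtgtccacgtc
Col3a1: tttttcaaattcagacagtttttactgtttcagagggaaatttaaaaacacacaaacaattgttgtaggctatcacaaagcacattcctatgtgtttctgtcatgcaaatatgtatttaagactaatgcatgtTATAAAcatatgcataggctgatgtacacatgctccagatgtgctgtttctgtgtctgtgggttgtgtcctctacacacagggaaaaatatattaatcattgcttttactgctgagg
Col5a1: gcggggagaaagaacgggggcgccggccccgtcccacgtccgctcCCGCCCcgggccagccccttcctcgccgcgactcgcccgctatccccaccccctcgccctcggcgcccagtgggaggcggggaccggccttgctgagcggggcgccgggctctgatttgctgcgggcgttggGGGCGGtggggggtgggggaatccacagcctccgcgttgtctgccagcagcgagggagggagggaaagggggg
Col15a1: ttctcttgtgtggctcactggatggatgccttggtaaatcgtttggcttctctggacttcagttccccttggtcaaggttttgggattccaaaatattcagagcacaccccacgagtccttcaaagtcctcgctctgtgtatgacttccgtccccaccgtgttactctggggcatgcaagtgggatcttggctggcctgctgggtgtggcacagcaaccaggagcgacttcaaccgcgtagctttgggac
Col18a1: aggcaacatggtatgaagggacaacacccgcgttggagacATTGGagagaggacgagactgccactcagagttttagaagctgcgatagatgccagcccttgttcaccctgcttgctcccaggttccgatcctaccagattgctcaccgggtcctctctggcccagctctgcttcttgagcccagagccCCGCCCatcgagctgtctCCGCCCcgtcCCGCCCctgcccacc
Col8a1: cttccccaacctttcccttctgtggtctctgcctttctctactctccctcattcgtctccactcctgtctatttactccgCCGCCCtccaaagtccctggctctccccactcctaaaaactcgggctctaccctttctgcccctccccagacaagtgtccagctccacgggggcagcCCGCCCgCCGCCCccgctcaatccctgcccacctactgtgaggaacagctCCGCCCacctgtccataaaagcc

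Promoters were matched for 35 of the 44 members, in 38 windows. On either strand of the full 250 upstream bases, exons included, GGGCGG occurred in 22 of the 38 collagen windows (57.9%) and in 32.7% of all 32851 promoters. CCAAT occurred in 13 of 38 (34.2%), against 33.8% of all promoters, and TATAAA in 5 of 38 (13.2%), against 12.4%. A match describes the letters and does not show a working site. Type IV genes lie head to head in the annotation (GENCODE M21, GRCm38): the starts of Col4a1 on the minus strand and Col4a2 on the plus strand overlap by 22 bases on chromosome 8, those of Col4a4 and Col4a3 lie 71 bases apart on chromosome 1, and those of Col4a6 and Col4a5 lie 1308 bases apart on chromosome X.

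Levels are FPKM, that is fragments scaled to transcript length and library size, which allows genes of different length to be compared. Depth was read from the smallest steps between low values and ranged from 34500000 to 40100000 steps per library, and FPKM sums ranged from 328158 to 469208. Replicates correlated with r of 0.972 to 0.996 over log2 values. The 4-factor day 4 libraries stood furthest apart, with 556 genes over 2-fold different between the replicates, and mitochondrial genes held 2.03% of the FPKM sum of CT replicate 2, while the other 9 libraries of the removal experiment had 5.77% to 8.12%. All 10 fibroblast markers were at 1 FPKM or above in every MEF and intermediate group, and all 6 pluripotent markers in both iPSC groups, so the groups carried the markers of their labelled cell types. This level does not separate the types. It was also reached by 9 of 10 fibroblast markers in CF1 iPSCs, all 6 pluripotent markers on 4-factor day 7 and all 6 macrophage markers on CF1 day 0. Whether the replicates were separate cultures is not in the labels, so the p-values reflect the spread between libraries, which may be technical.

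Collagen transcripts made up a share of the FPKM sum that varied widely. In the 4-factor arm their share was 1.71 ± 0.109% on day 0, 1.27 ± 0.00879% on day 2, 0.869 ± 0.127% on day 4, 2.26 ± 0.00488% on day 7, and iPSCs had 0.0212 ± 0.00223% (mean ± SD, n = 2 libraries in each group here and throughout). The CF1 chemical arm had 1.03 ± 0.0174% on day 0, 0.865 ± 0.0193% on day 4, 0.911 ± 0.0295% on day 8, 3.54 ± 0.0956% on day 12, and its iPSCs had 0.0437 ± 0.0000105%. In the removal experiment it was 5.36 ± 0.276% in -CHIR, 4.04 ± 0.0148% in -PD, 2.97 ± 0.0142% in -VC, 5.06 ± 0.0372% in -WS and 7.38 ± 2.21% in CT. Both arms thus had their highest share at the last intermediate, and the iPSC libraries were lower than every other library. Fewer cells of a type and less RNA per cell cannot be told apart in bulk samples.

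The make-up of the family shifted as well. Fibrillar genes held 80.9 ± 0.443% of the collagen FPKM on 4-factor day 0 and 85.0 ± 0.417% on day 7. During chemical reprogramming of CF1 cells they held 75.1 ± 0.170% on day 0, 57.8 ± 0.0431% on day 4, 47.6 ± 0.0360% on day 8 and 90.7 ± 0.187% on day 12. Beaded filament genes held 9.96 ± 0.207%, 25.1 ± 0.00516%, 27.3 ± 0.267% and 3.71 ± 0.0987% on those 4 days, and multiplexins 0.457 ± 0.00888%, 8.26 ± 0.0272%, 12.07 ± 0.250% and 1.02 ± 0.0847%. The middle of the chemical arm was therefore the point at which fibrillar genes held the smallest share among fibroblasts and intermediates.

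**Figure D1:**
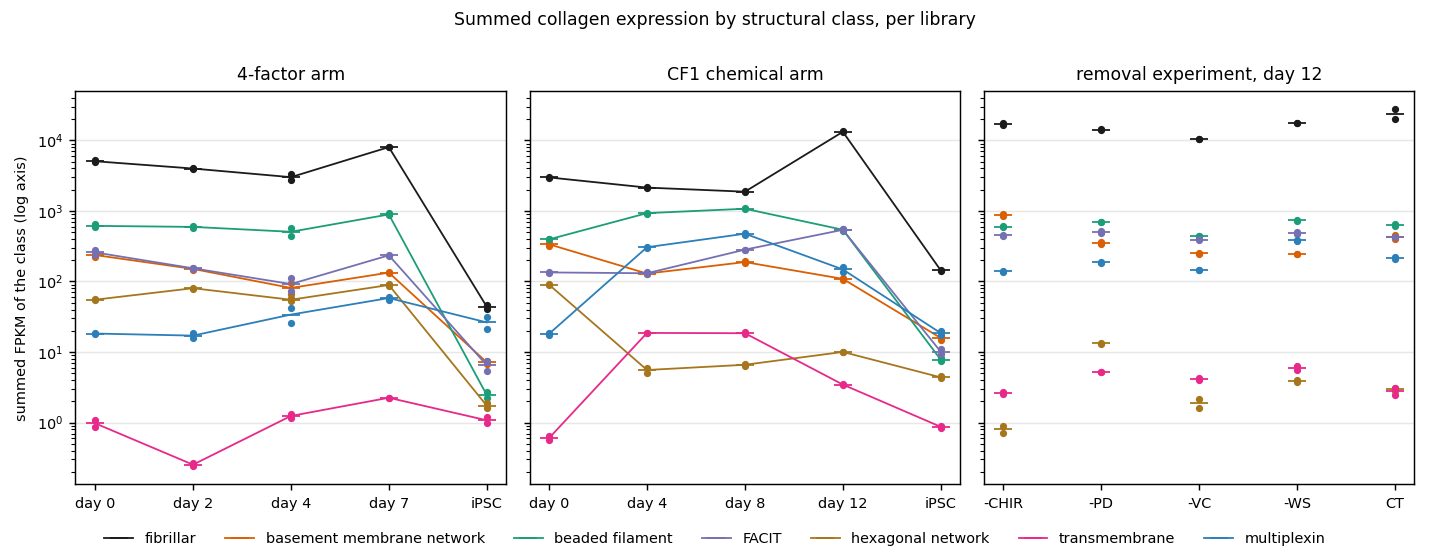
Summed FPKM of 7 collagen classes (log axis) in each library (points) and as group means (dashes), by day or group in the 3 experiments. The summed fibrillar FPKM was highest on day 7 of the 4-factor arm and day 12 of the CF1 chemical arm, the summed hexagonal network FPKM of the CF1 chemical arm was 89.9 ± 1.39 on day 0 and 5.56 ± 0.658 on day 4, and the multiplexin sum was 18.1 ± 0.795 on day 0 and 475 ± 21.5 on day 8.

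Most members were expressed in some library. In the 30 libraries 7 members never reached 1 FPKM: the basement membrane genes Col4a3 and Col4a4, the beaded filament genes Col6a4, Col6a5 and Col6a6, and the FACIT genes Col19a1 and Col22a1. Genes were tested within a table where at least 2 libraries had 1 FPKM or more, and 28 of the 44 members passed in the 4-factor arm, against 32 among the CF1 libraries and 24 in the removal experiment. Of these, 3 passed in the 4-factor arm through a single group (Col4a6 and Col17a1 through day 7, Col9a2 through iPSCs), and 3 in the CF1 chemical arm (Col11a2 and Col9a3 through day 4, Col9a2 through iPSCs), so that a higher level in that group was fixed by the filter. A gene was called where limma's Benjamini-Hochberg adjusted p was under 0.05 and the change in log2(FPKM + 1) was at least 2-fold, and only called genes are said to have risen or fallen. On CF1 day 0, Col13a1, Col20a1, Col23a1, Col24a1, Col25a1 and Col26a1 were below 1 FPKM, and they passed through later groups. They could therefore not be called lower than day 0, so the direction of their calls against it was fixed. Likewise, a member below 1 FPKM in both libraries of any group could not be called higher there. Over the 14 comparisons 34 members were called at least once, 21 of them higher in some comparison and lower in another. Of the 16377 genes tested in any of these comparisons, 73.8% were called at least once and 23.2% in both directions.

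Between day 0 and the intermediates, limma called 3 to 10 members in the 4-factor arm and 16 to 21 in the CF1 chemical arm. In the 4-factor arm limma called 3 of the 28 members that passed on day 2 (1 higher, 2 lower), against 3.68% of all 14761 genes tested (1.95% higher and 1.73% lower). On day 4 it called 10 (1 higher, 9 lower; 16.8% of all genes, 9.44% higher and 7.41% lower), and on day 7 it called 7 (5 higher, 2 lower; 10.1% of all genes, 6.21% higher and 3.91% lower). The median log2 fold change of the members that passed was -0.36 on day 2, -0.48 on day 4 and 0.48 on day 7, and that of all genes 0.04, 0.04 and 0.02. Among CF1 intermediates limma called 20 of the 32 members that passed on day 4 (13 higher, 7 lower), against 19.7% of all 15442 genes tested (11.7% higher and 8.08% lower). On day 8 it called 16 (10 higher, 6 lower; 24.3% of all genes, 11.9% higher and 12.4% lower), and on day 12 it called 21 (12 higher, 9 lower; 25.6% of all genes, 10.1% higher and 15.5% lower). The member medians were 0.84, 0.33 and 0.41, beside 0.04, 0.00 and -0.06 over all genes. With FPKM rescaled to TPM (a fixed sum per library), the called members were 1 higher and 4 lower on 4-factor day 2 and 10 higher and 10 lower on CF1 day 8. These comparisons share the day 0 libraries of their arm. The higher counts of the CF1 days include members below 1 FPKM on day 0, which could not be called lower.

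**Figure D2:**
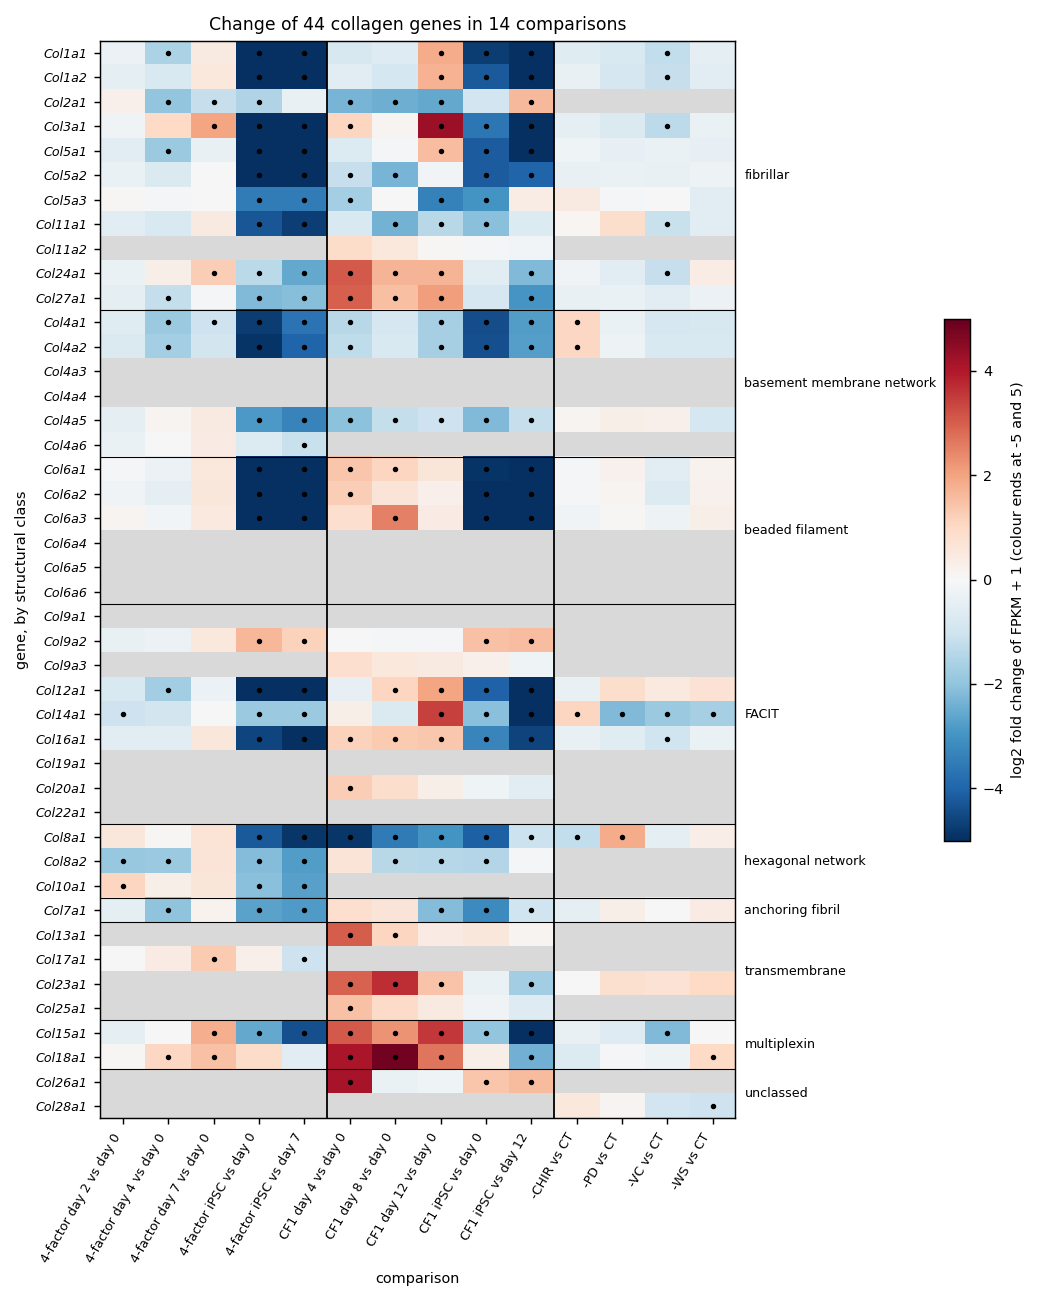
Log2 fold change of FPKM + 1 (colour, ending at -5 and 5) of the 44 collagen genes (rows, by structural class) in 14 comparisons (columns), where a dot marks a called gene and grey a gene that was not tested. Most tested members fell in iPSCs, while the chemical arm had rises of Col15a1 and Col18a1 and falls of Col8a1 on all 3 days.

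The major fibrillar genes were highest at the last intermediate of each arm. Col1a1 and Col1a2 encode the chains of type I collagen, and Col1a1 was the most abundant collagen in most libraries. Col1a1 had 2451 and 2253 FPKM on 4-factor day 0, 1937 and 1886 on day 2, 1046 and 594 on day 4 and 3171 and 3319.6 on day 7. The day 4 libraries were the lowest of these 8 and differed from each other by more, as a ratio, than the other 3 pairs. Against day 0, Col1a1 fell on day 4 with log2 -1.57 ± 0.24 (SE, adjusted p = 0.000975), and on day 7 its change of log2 0.47 ± 0.24 (SE, adjusted p = 0.172) did not pass. Changes are given on the log2(FPKM + 1) scale with their standard error (SE) from the fit. Col1a2 had 902 and 872 FPKM on day 4, against 1556 and 1457 on day 0, a change of log2 -0.76 ± 0.14 that did not reach 2-fold. The ratio of Col1a1 to Col1a2 was between 0.681 and 1.93 across the 30 libraries, the lowest being that of 4-factor day 4 replicate 2.

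Among CF1 libraries Col1a1 had 1469 and 1431 FPKM on day 0, 813 and 854 on day 4, 942 and 909 on day 8 and 5345 and 5109 on day 12, and Col1a2 had 899 and 863, 589 and 607, 489 and 471 and 3011 and 2923 on the same days. Both stood below day 0 on days 4 and 8 without passing 2-fold, and on day 12 every library was above every day 0 library. On day 12 Col1a1 rose by log2 1.85 ± 0.06 (SE, adjusted p = 2.07e-08), and Col1a2 by log2 1.75 ± 0.06 (SE, adjusted p = 3.52e-08). Dcn, a fibroblast marker, also stood higher on day 12 (1105 and 1173 FPKM, against 46.0 and 45.8 on day 0), and the sum of the 10 fibroblast markers was 1932 to 2004 FPKM on day 12 against 871 to 936 on day 0. Without Dcn the other 9 summed to 827 to 831 FPKM on day 12 and 825 to 890.0 FPKM on day 0. Of the 10, 6 were called higher and 2 lower on day 12. Their part in the collagen changes was not tested.

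Col3a1, the chain of type III collagen of reticular fibres, rose towards the last intermediate of both arms. It had 511 and 494 FPKM on 4-factor day 0, 449 and 450.1 on day 2, 999 and 987 on day 4 and 2007 and 1935 on day 7, with no overlap between day 7 and any earlier day. Its rise on day 7 was log2 1.97 ± 0.12 (SE, adjusted p = 9.83e-06), and on day 4, when Col1a1 fell, its change of log2 0.98 ± 0.12 lay just below 2-fold. Along the chemical arm Col3a1 had 223 and 212 FPKM on day 0, 452 and 463 on day 4, 242 and 236 on day 8 and 4332 and 4249.7 on day 12. It was called higher on day 4 (1.07) and day 12 but not on day 8, and on TPM the day 4 change was 0.92 and not called. On day 12 it rose by log2 4.29 ± 0.05 (SE, adjusted p = 1.98e-10), the largest rise of any member that day. The ratio of Col3a1 to Col1a1 was 0.633 and 0.583 on 4-factor day 7, against 0.209 and 0.219 on day 0, and 0.810 and 0.832 on CF1 day 12, against 0.152 and 0.148 on day 0.

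**Figure D3:**
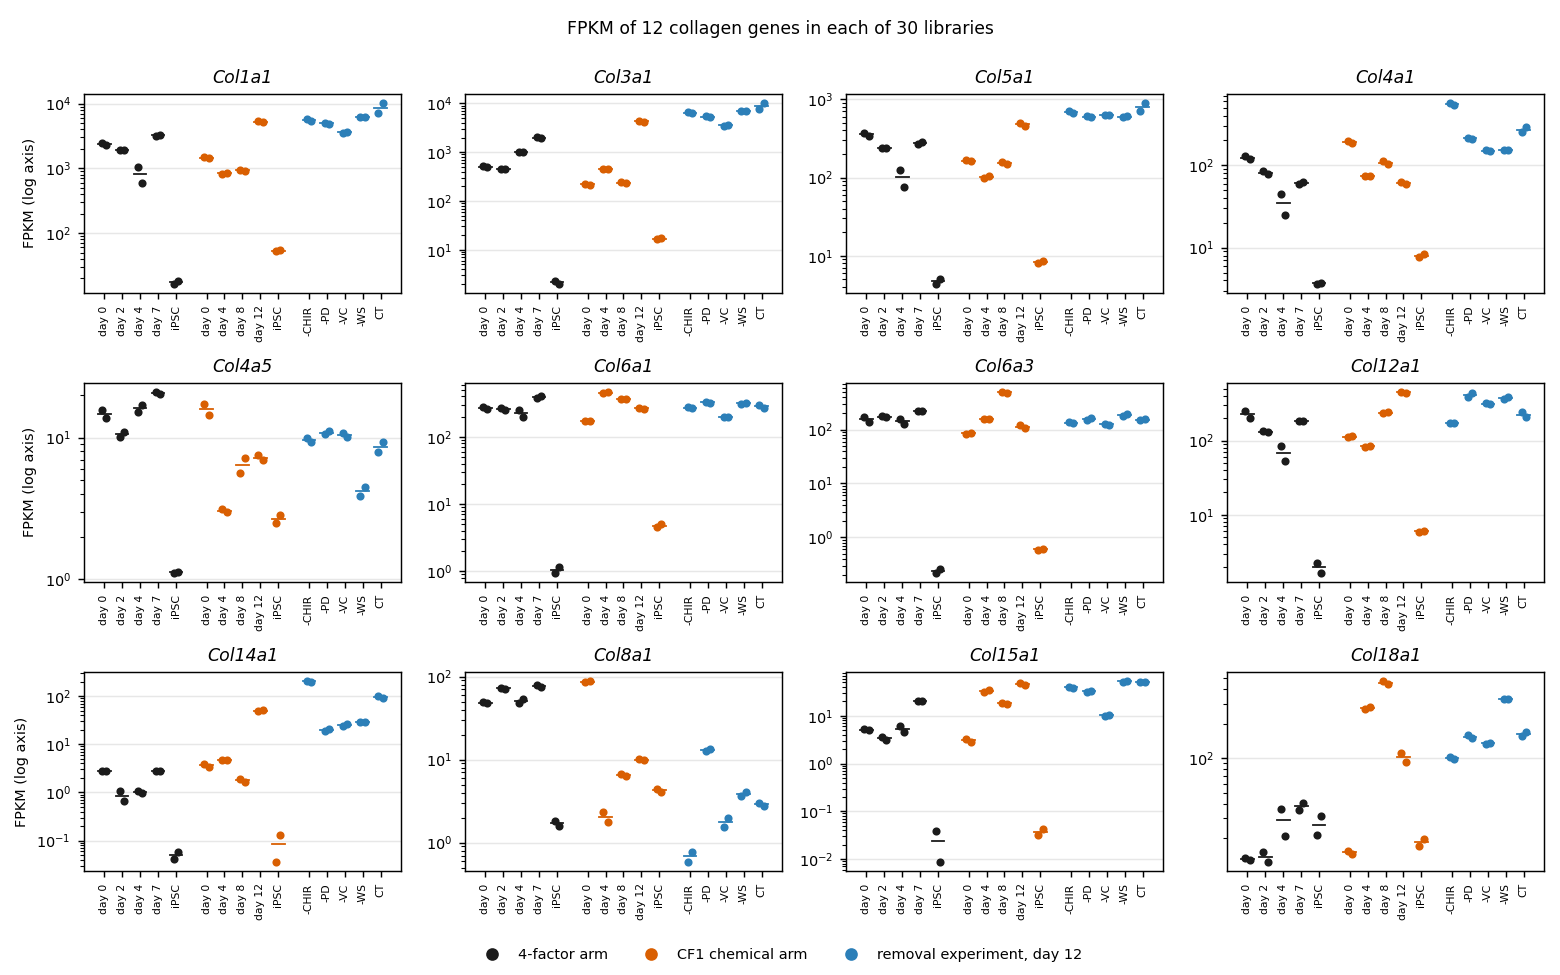
FPKM (log axis) of 12 collagen genes in each of the 30 libraries (points) with the mean of each group (dash), by day or group and coloured by experiment. Col1a1 and Col3a1 had their highest values in CT and their lowest in iPSCs, while both were lower in -VC than on CF1 day 12. The experiments are set side by side without a test. Col8a1 and Col18a1 went in opposite directions between day 0 and day 4 of the CF1 chemical arm.

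Among the fibril-regulating chains, Col5a1 and Col5a2, which assemble together into type V collagen, parted from each other. Chemical-arm levels of Col5a1 were 167 and 162 FPKM on day 0, 98.8 and 103 on day 4, 156 and 149.9 on day 8 and 499 and 458 on day 12, whereas Col5a2 had 248 and 226, 107 and 107, 47.7 and 45.5 and 216 and 215. Their ratio in a library was below 1 on days 0 and 4 and 2.13 to 3.29 on days 8 and 12. Col5a2 fell on day 8 with log2 -2.32 ± 0.07 (SE, adjusted p = 1.45e-08), and was not called on day 12, when Col5a1 rose by log2 1.54 ± 0.06 (SE, adjusted p = 6.24e-08). On 4-factor day 4 the pair differed the other way: Col5a1 had 126 and 75.1 FPKM against 371 and 339 on day 0 and fell with log2 -1.86 ± 0.21 (SE, adjusted p = 0.000190), while Col5a2, at 169.9 and 168 FPKM against 286 and 278, changed by log2 -0.74 ± 0.11 and was not called.

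Col5a3, a further type V chain, had 15.7 and 14.7 FPKM on CF1 day 0, 3.47 and 4.54 on day 4, 15.1 and 15.2 on day 8 and 0.615 and 0.541 on day 12. It was near its day 0 level on day 8 and low on days 4 and 12, with falls of log2 -1.70 ± 0.12 (SE, adjusted p = 2.66e-06), and log2 -3.36 ± 0.12 (SE, adjusted p = 3e-08). In the 4-factor arm its 8 fibroblast and intermediate libraries lay between 13.5 and 17.3 FPKM. Col11a1, a type XI chain, had 0.891 and 0.612 FPKM on CF1 day 8, against 8.13 and 7.90 on day 0, and fell with log2 -2.37 ± 0.11 (SE, adjusted p = 1.97e-07).

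The low-level fibrillar genes Col24a1, Col27a1 and Col2a1 also changed. Col24a1, which encodes a minor fibrillar chain, had 11.4 and 10.8 FPKM on CF1 day 4, against 0.435 and 0.497 on day 0, and rose by log2 3.05 ± 0.11 (SE, adjusted p = 3.38e-08). Col27a1, another minor fibrillar chain, had 19.1 and 20.5 FPKM on day 4, against 1.58 and 1.64 on day 0, and rose by log2 3.00 ± 0.09 (SE, adjusted p = 1.47e-08). Both were highest on day 4 of the 3 chemical days and were called higher on all 3. On 4-factor day 4 Col27a1 fell with log2 -1.21 ± 0.18 (SE, adjusted p = 0.000910), a call that was lost without day 4 replicate 2 (-0.93). Col2a1, the chain of cartilage type II collagen, had 0.179 and 0.177 FPKM on CF1 day 4, against 4.92 and 4.76 on day 0, and 0.552 and 0.167 FPKM on 4-factor day 4, against 4.296 and 4.219 on day 0. It fell with log2 -2.31 ± 0.11 and log2 -1.97 ± 0.16 (SE). On 4-factor day 7, where Col2a1 had 1.227 and 1.503 FPKM, the 6 chondrocyte markers summed to 74.8 to 77.4 FPKM, against 7.96 to 8.51 on day 0. Of these, 3 were below 1 FPKM on day 7 (Acan, and Matn1 and Snorc at 0), and 2 of the 4 tested were called higher.

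The basement membrane genes Col4a1 and Col4a2, which form the ubiquitous type IV network, were lower after day 0 in both arms. Col4a1 had 130.4 and 118 FPKM on 4-factor day 0, 84.0 and 78.9 on day 2, 44.3 and 25.2 on day 4 and 58.9 and 62.0 on day 7, and Col4a2 had 102 and 92.8, 59.1 and 57.3, 34.4 and 24.4 and 49.3 and 52.6. Every later library was below every day 0 library for both genes. Col4a1 fell on day 4 with log2 -1.86 ± 0.22 (SE, adjusted p = 0.000215), and Col4a2 with log2 -1.71 ± 0.17 (SE, adjusted p = 7.78e-05). On day 7 Col4a1 fell with log2 -1.02 ± 0.22 (SE, adjusted p = 0.00681), a call lost without day 0 replicate 1 (adjusted p = 0.0558) or day 7 replicate 1 (-0.99), and Col4a2 changed by log2 -0.92 ± 0.17. In the CF1 chemical arm Col4a1 had 199 and 187 FPKM on day 0, 73.7 and 74.6 on day 4, 111 and 103 on day 8 and 63.1 and 58.9 on day 12, falling with log2 -1.37 ± 0.07 on day 4 and log2 -1.65 ± 0.07 on day 12. Col4a2 fell with log2 -1.28 ± 0.09 and log2 -1.64 ± 0.09 on these days. In each of the 30 libraries the ratio of Col4a1 to Col4a2 was between 1.03 and 1.87.

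Col4a5, a chain of the more specialised type IV networks, differed between the arms. It had 3.12 and 2.98 FPKM on CF1 day 4, against 17.2 and 14.5 on day 0, and fell with log2 -2.06 ± 0.12 (SE, adjusted p = 1.13e-06). On 4-factor day 4 it had 15.1 and 17.0 FPKM, against 15.6 and 13.7 on day 0, and the groups overlapped in part. Its neighbour Col4a6, the partner of Col4a5 in such networks, stayed at or below 1.30 FPKM in the 4-factor arm and was not tested in the other 2 experiments. On CF1 day 12 the Col4a5 change of log2 -1.04 ± 0.12 was called, but not without day 0 replicate 1 (-0.92) or day 12 replicate 2 (-0.98).

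Beaded filament genes were higher in the middle of the chemical arm. Col6a1 and Col6a2, chains of type VI collagen, had 444 and 463 FPKM and 314 and 327 FPKM on CF1 day 4, against 175 and 173 FPKM and 137 and 135 FPKM on day 0. They rose by log2 1.38 ± 0.06 (SE, adjusted p = 1.22e-07), and log2 1.23 ± 0.07 (SE, adjusted p = 6.33e-07). Col6a3, the longest chain of the same filament, had 84.1 and 86.2 FPKM on day 0, 154 and 155 on day 4, 495 and 486 on day 8 and 119.5 and 107 on day 12. It was highest on day 8, a rise of log2 2.51 ± 0.06 (SE, adjusted p = 4.8e-09), and its day 12 libraries lay between those of day 0 and day 4. The ratio of Col6a3 to Col6a1 was 1.34 and 1.33 on CF1 day 8 and no higher than 0.670 in the libraries of the other 14 groups. On day 8 Col6a1 rose by log2 1.08 ± 0.06, which on TPM was 0.92 and not called. In the 4-factor arm none of the 3 was called on day 2, 4 or 7, with log2 0.54 ± 0.14 for Col6a1 and log2 0.58 ± 0.18 for Col6a2 on day 7.

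**Figure D4:**
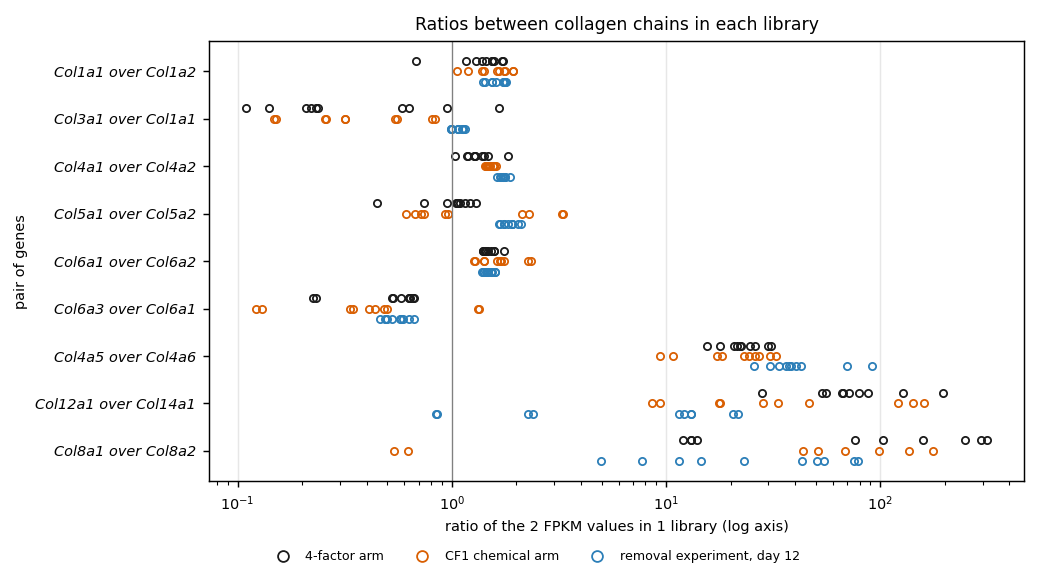
Ratio of 2 FPKM values within a library (log axis) for 9 pairs of collagen genes, with 1 circle per library, coloured by experiment. Col4a1 over Col4a2 and Col6a1 over Col6a2 kept within narrow ranges (1.03 to 1.87 and 1.28 to 2.34), while Col12a1 over Col14a1 spanned 0.841 to 196 and Col8a1 over Col8a2 0.538 to 316 among libraries where both were above 0. The upper ends of the 2 wide ranges rest on low denominators. Both came from 4-factor day 2 replicate 2, where Col14a1 had 0.662 and Col8a2 0.224 FPKM.

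FACIT genes separated by member. Col12a1, which encodes a FACIT collagen of dense connective tissue, had 84.0 and 53.5 FPKM on 4-factor day 4, against 247 and 201 on day 0, and fell with log2 -1.72 ± 0.21 (SE, adjusted p = 0.000259). The CF1 libraries had 110.2 and 115 FPKM on day 0, 82.9 and 85.3 on day 4, 232 and 238 on day 8 and 449 and 439 on day 12. The day 12 libraries were the highest, a rise of log2 1.97 ± 0.05 (SE, adjusted p = 5.58e-09). On day 8 its called rise was 1.06, and 0.90 on TPM, where it was not called.

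Col14a1, a FACIT collagen of the fibril surface, was low in MEFs and high on CF1 day 12. It had 3.88 and 3.45 FPKM on CF1 day 0, 4.71 and 4.77 on day 4, 1.91 and 1.68 on day 8 and 47.8 and 51.0 on day 12. Both day 12 libraries were far above all others of the arm, and Col14a1 rose by log2 3.43 ± 0.09 (SE, adjusted p = 8.12e-09). On 4-factor day 2 it had 1.05 and 0.662 FPKM, against 2.82 and 2.81 on day 0, and fell with log2 -1.05 ± 0.13 (SE, adjusted p = 0.00101), though not without day 2 replicate 2 (-0.89). Col16a1, another FACIT gene, had 16.5 and 16.7 FPKM on CF1 day 0, 35.5 and 40.1 on day 4, 45.6 and 39.8 on day 8 and 48.8 and 39.8 on day 12, and was called higher on all 3 chemical days with changes of 1.14, 1.31 and 1.35. Col20a1 reached 2.00 and 2.15 FPKM on CF1 day 4, against 0.361 and 0.293 on day 0.

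The hexagonal network gene Col8a1, whose product forms sheets below vascular and corneal endothelium, had the largest fall of the family on days 4 and 8 of the chemical arm. It had 86.1 and 88.0 FPKM on CF1 day 0, 2.31 and 1.78 on day 4, 6.75 and 6.28 on day 8 and 10.0 and 9.87 on day 12, and no later library came near the day 0 level. Its falls were log2 -4.86 ± 0.09 (SE, adjusted p = 1.65e-09) on day 4, log2 -3.55 ± 0.09 on day 8 and log2 -3.01 ± 0.09 on day 12. The 6 macrophage markers were lower over the same days, with a sum of 11.1 to 11.9 FPKM on day 4 (2 of 6 at 1 FPKM or above) against 244 to 257 on day 0 (6 of 6), mainly Lyz2. Their part in the result was not tested. Levels of Col8a1 in the 4-factor arm were 49.0 and 47.5 FPKM on day 0, 73.2 and 70.6 on day 2, 48.1 and 53.0 on day 4 and 78.8 and 75.7 on day 7, and the gene was called on none of these days.

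Its partner chain Col8a2 had 3.52 and 3.65 FPKM on 4-factor day 0, 0.247 and 0.224 on day 2, 0.303 and 0.213 on day 4 and 6.00 and 6.31 on day 7. The dip on days 2 and 4 gave falls of log2 -1.89 ± 0.11 (SE, adjusted p = 2.53e-05), and log2 -1.87 ± 0.11 (SE, adjusted p = 4.73e-06). Col10a1, the type X chain of hypertrophic cartilage, had 8.19 and 7.94 FPKM on 4-factor day 2, against 3.35 and 3.20 on day 0, and rose by log2 1.08 ± 0.12 (SE, adjusted p = 0.000788). Col7a1, the chain of the anchoring fibrils below the epidermis, had 1.56 and 0.891 FPKM on 4-factor day 4, against 8.56 and 7.30 on day 0, and fell with log2 -2.02 ± 0.17 (SE, adjusted p = 3.5e-05). In the CF1 chemical arm Col7a1 had 13.1 and 10.5 FPKM on day 0, 21.7 and 21.5 on day 4, 19.8 and 18.3 on day 8 and 1.95 and 1.69 on day 12, where it fell with log2 -2.18 ± 0.13 (SE).

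The 3 transmembrane collagens tested in the CF1 chemical arm, whose ectodomains can be shed from the cell surface, were below 1 FPKM in CF1 MEFs and rose in the chemical medium. Col13a1 and Col25a1 passed the filter only through days 4 and 8, and Col23a1 only through days 4, 8 and 12. A call against day 0 could therefore only be higher. Col13a1 had 7.25 and 7.38 FPKM on day 4, against 0.0127 and 0.0404 on day 0, and rose by log2 3.02 ± 0.10 (SE, adjusted p = 2.05e-08). Col23a1 had 0.326 and 0.320 FPKM on day 0, 9.33 and 9.08 on day 4, 16.5 and 15.5 on day 8 and 2.58 and 2.46 on day 12, with its largest rise on day 8, of log2 3.68 ± 0.08 (SE, adjusted p = 3.67e-09). Col25a1 had 2.05 and 2.18 FPKM on day 4, against 0.143 and 0.125 on day 0, and was called higher. Col13a1 and Col25a1 were thus highest on day 4 and Col23a1 on day 8. Col17a1, a component of hemidesmosomes, had 1.51 and 1.61 FPKM on 4-factor day 7, against 0.0346 and 0.0443 on day 0, and its level on day 7 was the one through which it passed the filter, so that the direction of its call, higher, was fixed. The 6 epithelial markers summed to 69.6 to 69.9 FPKM on that day, against 2.45 to 2.76 on day 0. On day 4, when Col17a1 had 0.519 and 0.263 FPKM, these markers summed to 114 to 127 FPKM. In 4-factor iPSCs, where Col17a1 had 0.231 and 0.266 FPKM, the sum was 144 to 147 FPKM. Their relation to Col17a1 was not tested. The unclassed gene Col26a1 had 23.3 and 22.6 FPKM on CF1 day 4, against 0.226 and 0.549 on day 0, and rose by log2 4.12 ± 0.16 (SE, adjusted p = 6.62e-08). By day 8 it was back to 0.140 and 0.0270 FPKM.

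The multiplexins Col15a1 and Col18a1, proteoglycan-type collagens of basement membranes whose ends can be cleaved to antiangiogenic fragments, rose in both arms. Col18a1 had 15.4 and 14.7 FPKM on CF1 day 0, 268 and 277 on day 4, 471 and 442 on day 8 and 111 and 92.4 on day 12. All 6 chemical libraries were above both day 0 libraries, with rises of log2 4.09 ± 0.10 (SE, adjusted p = 4.01e-09) on day 4, log2 4.83 ± 0.10 on day 8 and log2 2.67 ± 0.10 on day 12. Col15a1 had 3.26 and 2.90 FPKM on day 0, 31.9 and 34.2 on day 4, 19.0 and 17.7 on day 8 and 48.5 and 44.1 on day 12, and rose by log2 3.06 ± 0.08, log2 2.24 ± 0.08 and log2 3.53 ± 0.08. Extra-embryonic endoderm markers summed to 43.1 to 47.6 FPKM on day 4 against 5.29 to 5.43 on day 0 (Afp below 1 FPKM). Their sum was 19.7 to 21.9 FPKM on day 8 and 18.9 to 21.3 on day 12. Endothelial markers summed to 39.0 to 39.5 FPKM on day 4, against 6.38 to 6.50 on day 0. On day 4 this was mainly Kdr, with Tek and Tie1 below 1 FPKM. The endothelial sum was 10.79 to 12.15 FPKM on day 8 and 9.16 to 10.06 on day 12. Both sums were thus highest on day 4, Col18a1 on day 8 and Col15a1 on day 12. The part of these markers in the rises was not tested.

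On 4-factor day 7 Col15a1 had 20.01 and 20.8 FPKM, against 5.23 and 5.00 on day 0, and rose by log2 1.81 ± 0.14 (SE, adjusted p = 3.77e-05). Col18a1 had 35.3 and 40.2 FPKM on that day, against 13.5 and 12.8 on day 0, and rose by log2 1.45 ± 0.25 (SE, adjusted p = 0.00255). On day 4 the Col18a1 libraries differed from each other (36.2 and 21.1 FPKM). The called rise of log2 1.02 ± 0.25 (SE, adjusted p = 0.0100) was lost on TPM (0.80), without day 4 replicate 1 (0.64) and without day 0 replicate 2 (adjusted p = 0.0559).

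In iPSCs the family was low with few exceptions. Against day 0, limma called 25 of the 28 members that passed in the 4-factor arm (1 higher, 24 lower), beside 41.5% of all genes (22.2% higher and 19.4% lower), and 22 of 32 in the CF1 chemical arm (2 higher, 20 lower), beside 40.5% (21.1% higher and 19.4% lower). Against the last intermediate it called 26 in 4-factor iPSCs (1 higher, 25 lower; 45.7% of all genes, 23.9% higher and 21.8% lower) and 24 in CF1 iPSCs (3 higher, 21 lower; 49.2% of all genes, 28.4% higher and 20.8% lower). The member medians were -3.84 and -2.15 against day 0, where all genes had 0.14 and 0.05, and -3.85 and -2.31 against the last intermediate, where all genes had 0.09 and 0.14. Members below 1 FPKM in both iPSC libraries could not be called higher there, so the direction of their calls was fixed. Col6a3, Col14a1, Col15a1 and Col24a1 were among them in both arms. The lower counts and the medians include such members, and the same limit holds for the pathway genes given below.

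In 4-factor iPSCs against day 0 the 6 largest falls were those of Col3a1, Col6a1, Col1a1, Col6a3, Col6a2 and Col1a2, chains of types I, III and VI. Col3a1 had 2.33 and 2.02 FPKM in 4-factor iPSCs, against 511 and 494 on day 0, and fell with log2 -7.31 ± 0.12 (SE, adjusted p = 1.87e-09). Col6a3 had 0.222 and 0.258 FPKM in 4-factor iPSCs, against 173 and 139 on day 0, and fell with log2 -6.98 ± 0.15 (SE, adjusted p = 3.65e-09). In CF1 iPSCs Col6a3 had 0.589 and 0.616 FPKM, against 84.1 and 86.2 on day 0, and fell with log2 -5.75 ± 0.06 (SE, adjusted p = 5.62e-11). The iPSC libraries lay far below day 0 in each case. Col3a1 had 16.8 and 17.1 FPKM in CF1 iPSCs, against 4332 and 4249.7 on day 12, and fell with log2 -7.90 ± 0.05 (SE, adjusted p = 5.45e-12), the largest fall between those groups.

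Of the 18 members that reached 1 FPKM in an iPSC library, 16 were higher in both CF1 libraries than in both 4-factor libraries, Col9a2 overlapped and Col18a1 was lower in CF1 iPSCs. The tables may have been normalized separately, and these levels are set side by side without a test. Col1a1 had 52.6 and 54.0 FPKM in CF1 iPSCs and 16.5 and 18.5 FPKM in 4-factor iPSCs, and Col3a1 16.8 and 17.1 FPKM and 2.33 and 2.02 FPKM. Fibroblast markers were ordered as Col1a1 and Col3a1 were: their sum was 38.9 to 42.5 FPKM in CF1 iPSCs, with 9 of 10 at 1 FPKM or above, and 11.3 to 14.4 FPKM in 4-factor iPSCs, with 3 of 10. Dcn had 21.5 and 18.5 FPKM in CF1 iPSCs and 0.468 and 0.450 FPKM in 4-factor iPSCs. Since the cells grew on feeders, the part of feeder RNA in these levels was not tested.

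A few members were not low in iPSCs. Col18a1 had 21.4 and 31.1 FPKM in 4-factor iPSCs, against 13.5 and 12.8 on day 0, and was the most abundant collagen of both libraries, ahead of Col1a1. Its change of log2 0.92 ± 0.25 did not reach 2-fold, and in CF1 iPSCs, at 17.2 and 19.8 FPKM against 15.4 and 14.7 on day 0, the change was log2 0.28 ± 0.10. Col9a2, a chain of the cartilage FACIT type IX, had 2.40 and 4.52 FPKM in 4-factor iPSCs, against 0.229 and 0.490 on day 0, and 1.74 and 2.45 FPKM in CF1 iPSCs, against 0.0989 and 0.121 on day 0. It was called higher in all 4 iPSC comparisons, a direction fixed by the filter through which it passed. Col26a1 had 3.16 and 2.08 FPKM in CF1 iPSCs, against 0.226 and 0.549 on day 0, and rose by log2 1.38 ± 0.16 (SE, adjusted p = 4.02e-05). Col2a1 had 1.70 and 2.45 FPKM in CF1 iPSCs, against 0.00780 and 0 on day 12, and rose by log2 1.60 ± 0.11 (SE, adjusted p = 1.19e-06). The reference level was below 1 FPKM for Col26a1 and for Col2a1, so either call could only be higher. The Col2a1 values of CF1 iPSCs were nevertheless below the 4.92 and 4.76 FPKM of CF1 day 0. In 4-factor iPSCs Col2a1 had 0.72 and 0.99 FPKM, against 4.296 and 4.219 on day 0, and was called lower. Col7a1 was called lower in CF1 iPSCs than on day 12, but not without either of 2 libraries (changes of -0.93 and -0.86).

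Withdrawal of a small molecule from day 8 to day 12 changed between 2 and 8 of the 24 members tested, which is 16.7% of them in -CHIR, 8.33% in -PD, 33.3% in -VC and 12.5% in -WS. All 4 comparisons share the CT libraries. limma called 4 of the 24 members that passed in -CHIR (3 higher, 1 lower), beside 0.971% of all 13290 genes tested (0.662% higher and 0.309% lower), and 2 in -PD (1 higher, 1 lower; 1.27% of all genes, 0.79% higher and 0.482% lower). In -VC it called 8 (0 higher, 8 lower; 2.33% of all genes, 0.918% higher and 1.41% lower), and in -WS 3 (1 higher, 2 lower; 0.91% of all genes, 0.444% higher and 0.467% lower). With a pseudocount of 0.1 the -WS count was 5, and 264 of all genes were called there in place of 121. The member medians were -0.20 in -CHIR, -0.16 in -PD, -0.61 in -VC and -0.32 in -WS, and those of all genes 0.03, 0.08, 0.13 and 0.06. On TPM the split in -PD was 1 higher and 2 lower. Without CT replicate 1 the count in -CHIR was 2 and that in -PD 5.

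Col14a1 (chromosome 15, 55307750 to 55520803, plus strand) was the single member called in all 4 withdrawals. It had 204 and 199 FPKM in -CHIR, 19.0 and 20.3 in -PD, 24.2 and 26.8 in -VC and 29.3 and 29.5 in -WS, against 100.4 and 90.4 in CT. The -CHIR libraries were the highest of the 10, the -PD, -VC and -WS libraries the lowest, and no group overlapped CT. It rose in -CHIR by log2 1.07 ± 0.08 (SE, adjusted p = 8.25e-05), a call lost by a narrow margin without CT replicate 2 (0.998). It fell in -PD with log2 -2.22 ± 0.08 (SE, adjusted p = 2.49e-06), in -VC with log2 -1.86 ± 0.08 (SE, adjusted p = 1.33e-06), and in -WS with log2 -1.66 ± 0.08 (SE, adjusted p = 7.94e-06). Col12a1, of the same class, had 171 and 170.1 FPKM in -CHIR and 391 and 439 in -PD, against 239 and 206 in CT, and was called in no withdrawal. The ratio of Col12a1 to Col14a1 was 0.841 and 0.854 in -CHIR and 20.6 and 21.6 in -PD, against 2.39 and 2.28 in CT.

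In -CHIR both chains of the common type IV network rose. Col4a1 had 567 and 538 FPKM in -CHIR, 216 and 209 in -PD, 152 and 149 in -VC and 153 and 155 in -WS, against 251 and 291 in CT, and Col4a2 had 319 and 305 FPKM in -CHIR, against 147 and 156 in CT. The -CHIR libraries were above all others for both genes. Col4a1 rose by log2 1.03 ± 0.08 (SE, adjusted p = 0.000164), and Col4a2 by log2 1.04 ± 0.07 (SE, adjusted p = 6.7e-05). Both changes lie near the 2-fold limit: without CT replicate 1 they were 0.92 and 0.998, and Col4a1 was at 0.99 without -CHIR replicate 1. Endothelial markers summed to 30.5 to 30.9 FPKM in -CHIR against 10.5 to 11.03 in CT, mainly Tek, with Tie1 at 0 and Vwf below 1 FPKM in -CHIR. Of the 4 endothelial markers tested, 1 was called higher. Fibroblast markers summed to 2702 to 2772 FPKM in -CHIR against 1731 to 2227 in CT, with 0 of 10 called by limma and a median change of log2 0.13, and neither list's part in the rise was tested.

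Col8a1 moved in opposite directions in -CHIR and -PD. It had 0.590 and 0.780 FPKM in -CHIR and 12.7 and 13.3 in -PD, against 3.01 and 2.78 in CT, and the groups did not overlap. It fell in -CHIR with log2 -1.21 ± 0.11 (SE, adjusted p = 0.000274), and rose in -PD by log2 1.84 ± 0.11 (SE, adjusted p = 2.85e-05). As its -CHIR level was below 1 FPKM, a call there could only be lower.

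In -VC the fibrillar genes of types I and III fell with Col15a1. Col15a1 had 9.99 and 10.4 FPKM in -VC, against 51.3 and 51.4 in CT, and fell with log2 -2.23 ± 0.06 (SE, adjusted p = 2.72e-07). Col3a1 had 3511 and 3580.1 FPKM in -VC, against 7612 and 10179.8 in CT, and fell with log2 -1.31 ± 0.19 (SE, adjusted p = 0.00137). Col1a1 had 3557 and 3604 FPKM in -VC, against 7106 and 10179.7 in CT, and fell with log2 -1.25 ± 0.20 (SE, adjusted p = 0.00232). The -VC libraries were the lowest of the experiment for these 3 genes. Col1a2 fell with log2 -1.14 ± 0.16 (SE) and Col24a1 with log2 -1.14 ± 0.10 (SE).

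CT replicate 2, which stands apart in its mitochondrial share, was the highest library of the experiment for Col1a1, Col1a2 and Col3a1. Its deposited values of Col1a1 and Col3a1 were the highest of that library and almost equal to each other, and the reason was not tested. Without it the -VC changes of Col1a1 and Col1a2 were -0.99 and -0.94 and not called, as was that of Col16a1 (-0.70), which was also lost without -VC replicate 2 (-0.98). With no filter on low values the adjusted p was 0.0790 for Col1a1 and 0.0717 for Col3a1. The falls of Col15a1, Col14a1, Col24a1 and Col11a1 in -VC were kept under each alternative setting tried.

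In -WS, Col18a1 had 331 and 326 FPKM, against 157 and 168 in CT, and rose by log2 1.01 ± 0.07 (SE, adjusted p = 5.01e-05). Both -WS libraries were the highest of the experiment, but on TPM (0.88) and without CT replicate 1 (0.96) the rise was not called. Col28a1, an unclassed collagen with von Willebrand factor domains, had 0.795 and 0.708 FPKM in -WS, against 2.71 and 2.51 in CT, and fell with log2 -1.04 ± 0.10 (SE, adjusted p = 0.000414). It was below 1 FPKM in -WS and passed the filter through other groups, so a call there could only be lower. In -VC it had 0.810 and 0.887 FPKM and was not called.

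The 2 arms share the day 4 time point, so the change from day 0 to day 4 was compared between them in a single fit over both tables, in which the method of reprogramming, the stock of mice and the table cannot be told apart. Of 35 members tested, 22 differed (18 with a higher change in the CF1 chemical arm, 4 with a lower one), beside 27.5% of all 16205 genes tested (14.2% higher and 13.2% lower). The sign for Col11a2 was fixed by the filter, which it passed through CF1 day 4 alone. Below the filter in the 4-factor arm were also Col13a1, Col20a1, Col23a1, Col25a1 and Col26a1, and Col10a1 was below it in the CF1 chemical arm. Those below it in the 4-factor arm passed only through CF1 groups where they were high, which favoured a positive sign. The median difference was 1.16 over the members and 0.00 over all genes. The largest positive differences were those of Col26a1, log2 4.54 ± 0.20 (SE, adjusted p = 1.75e-10), and Col27a1, log2 4.21 ± 0.21 (SE, adjusted p = 8.11e-10), and the largest negative one that of Col8a1, log2 -4.92 ± 0.13 (SE, adjusted p = 2.36e-12). By class, all 4 called FACIT genes, both called type VI genes (Col6a1 and Col6a2), 3 transmembrane genes, both multiplexins and Col7a1 had the higher change in the chemical arm. Col4a1 and Col4a2, which fell on day 4 in both arms, were not called for a difference, nor were Col1a1, Col1a2 and Col3a1. The differences of Col5a1 and Col12a1 were lost without 4-factor day 4 replicate 2 (0.79 and 0.98).

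**Figure D5:**
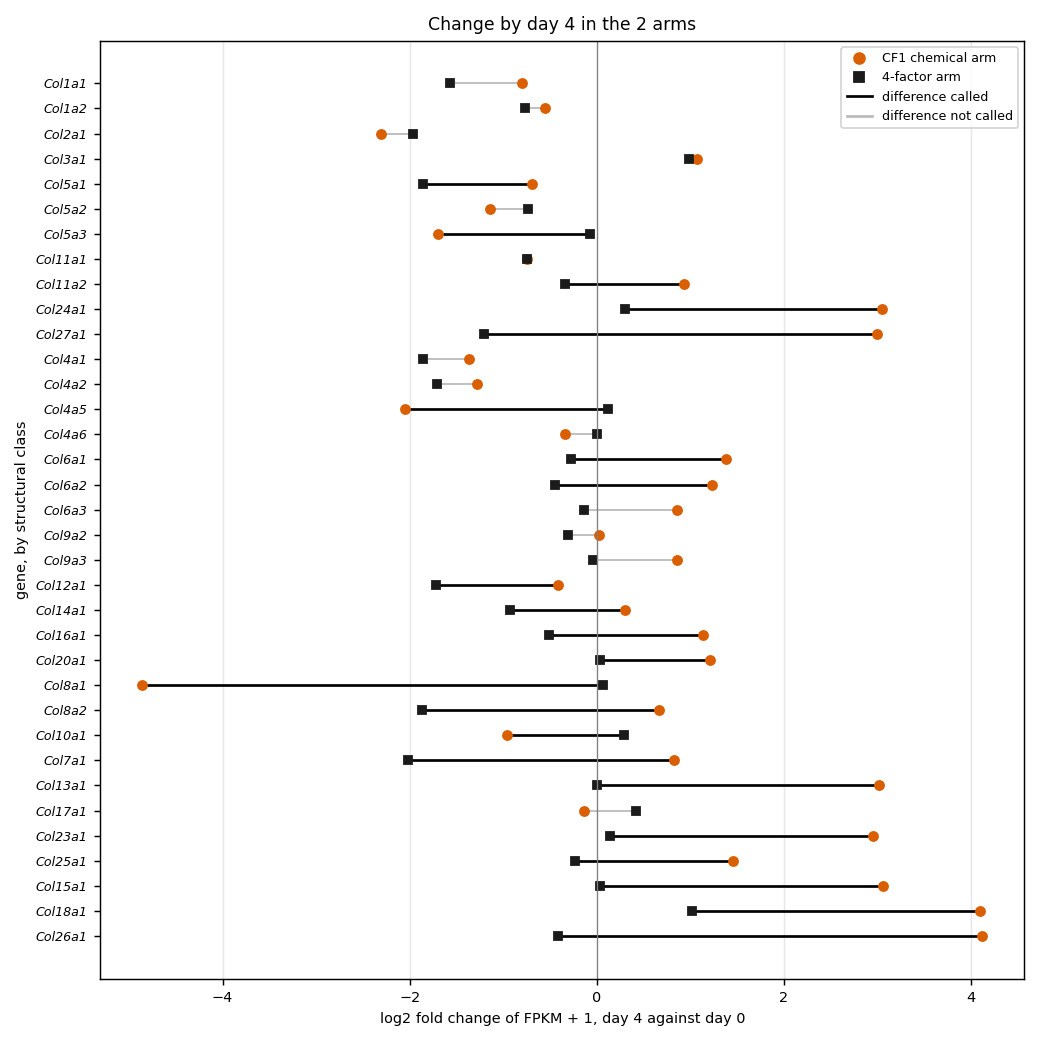
Log2 fold change of FPKM + 1 from day 0 to day 4 of 35 collagen genes (rows) in the CF1 chemical arm (circles) and the 4-factor arm (squares), joined by a black line where the difference was called and a grey one where it was not. Col27a1 rose in the chemical arm and fell in the 4-factor arm, and Col8a1 stood at -4.86 in the chemical arm with little change in the other.

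The other genes of the pathway are those that modify, process and bind collagen. Of 20 tested genes for hydroxylation, chaperones and export, 0 were called on 4-factor day 2, 6 fell on day 4 and 3 rose on day 7, and 2 rose and 1 fell on CF1 day 4, 4 rose and 1 fell on day 8, and 7 rose and 1 fell on day 12. Beside these counts, 3.68%, 16.8% and 10.1% of all genes were called on the 4-factor days and 19.7%, 24.3% and 25.6% on the CF1 days, so the list's counts on CF1 days 4 and 8 were near those shares. Plod1, a lysyl hydroxylase, had 26.8 and 27.6 FPKM on CF1 day 0, 77.9 and 80.4 on day 4, 182 and 170.4 on day 8 and 85.4 and 79.3 on day 12. Serpinh1, the collagen chaperone, had 350.1 and 245 FPKM on 4-factor day 4, against 1019 and 1004 on day 0, and fell with log2 -1.78 ± 0.22. In iPSCs against day 0, 16 of the 20 fell in the 4-factor arm and 13 in the CF1 chemical arm, and none rose, where 19.4% of all genes fell in either arm.

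The genes for propeptide processing and cross-linking split in the chemical arm. Of 12 tested, 5 rose and 4 fell on CF1 day 4, 5 rose and 4 fell on day 8, and 5 rose and 5 fell on day 12, beside 19.7%, 24.3% and 25.6% of all genes called. Adamts14, a procollagen N-proteinase, had 22.4 and 24.2 FPKM on CF1 day 4, against 1.53 and 1.71 on day 0, and rose by log2 3.21 ± 0.12, and Adamts2, of the same function, had 103 and 97.4 FPKM on day 12, against 8.98 and 9.73 on day 0, and rose by log2 3.29 ± 0.06. Lox, the cross-linking lysyl oxidase, had 57.9 and 58.3 FPKM on day 4, against 654 and 664 on day 0, and fell with log2 -3.48 ± 0.06. Tll1, a procollagen C-proteinase of the tolloid family, had 0.319 and 0.285 FPKM on that day, against 29.8 and 31.6, and fell with log2 -4.60 ± 0.10. Of the same genes in the 4-factor arm, 1 rose on day 2 and 4 fell on day 4, including Lox, and 0 of 12 were called on day 7, where 3.68%, 16.8% and 10.1% of all genes were called on the 3 days. In iPSCs against day 0, 11 fell in the 4-factor arm and 9 in the CF1 chemical arm, beside 19.4% of all genes in each.

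Among removal libraries Loxl1, a lysyl oxidase best known for elastic fibres, was the most frequently called gene of this list. It had 204 and 196 FPKM in -CHIR, 25.0 and 24.9 in -PD and 25.2 and 26.3 in -WS, against 89.0 and 80.5 in CT, with no overlap of these groups with CT. It rose in -CHIR by log2 1.23 ± 0.07 and fell in -PD with log2 -1.72 ± 0.07 and in -WS with log2 -1.68 ± 0.07.

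Of the 10 listed genes for collagen receptors and uptake, 6 were tested in the 4-factor arm and 8 in the CF1 chemical arm. On CF1 day 12, 1 rose and 4 fell, beside 25.6% of all genes called. Mrc2, the endocytic collagen receptor, had 35.5 and 34.8 FPKM on day 0, 76.4 and 78.9 on day 4, 171 and 163 on day 8 and 199.8 and 171 on day 12, and was called higher on all 3 chemical days. Itgb1, the beta chain of collagen-binding integrins, had 204 and 206 FPKM on day 4, against 709 and 695 on day 0, and fell with log2 -1.77 ± 0.05. All 6 tested in the 4-factor arm fell in its iPSCs, as did 6 of the 8 in CF1 iPSCs, both against day 0, where 19.4% of all genes fell in each arm.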

How the data were processed

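RNA was measured in 30 libraries, 2 in each of 15 groups taken from the sample titles, in 3 tables of 10 libraries. Per the labels' protocols, Novogene prepared the libraries and sequenced reads of 150 bp. The submitters' processing notes name the mm10 build and the tools StringTie 2.0, HISAT2 2.2.1 and fastp 0.20.1. Neither the annotation nor the handling of strand is given in the sources used here. What the authors deposited are FPKM values, without read counts. Of the 55401 identifiers in each table, 99.5% were matched to GENCODE M21, and its GRCm38 coordinates were used.

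Depth was read from steps between low values of single-exon genes, but between 9.98% and 20.4% of these values fell within 0.3% of a step, which is too few to recover counts, and a count model was not used. Intervals and detection limits that need counts are therefore not given.

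Each table was tested on its own with limma 3.58.1 in R 4.3.3 (linear models with trended empirical Bayes moderation) on log2(FPKM + 1), which understates changes of genes with low FPKM, over all genes that reached 1 FPKM in 2 or more libraries. The residual spread was estimated over the 5 groups of a table together. The adjusted p is that of Benjamini and Hochberg over all genes of a comparison. Genes were called at an adjusted p under 0.05 and at least 2-fold. The fit was tested on simulated data. The alternatives were a pseudocount of 0.1, FPKM rescaled to TPM, no filter on low values, the replicate number as a block, and leaving out each library in turn. Python 3.11.15 with pandas 2.3.3 was used for joins, and promoters came from RefSeq (GRCm38.p6).

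Full statistics are given, per comparison, for at most the 6 largest rises and 6 largest falls among called members and for called partners of a trimer, and other genes come from lists of modifying enzymes, processing enzymes and receptors, at most 3 rises and 3 falls each. The members and lists, and the markers of fibroblasts, macrophages, endothelium, extra-embryonic endoderm, chondrocytes, epithelium, keratinocytes, muscle, Schwann cells and pluripotent cells, were chosen with earlier results of these data known. The replicate numbers were not treated as pairs, since the labels do not say what they share.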

Additional observations from a re-analysis of the deposited data

Results flagged for a closer look

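The change of 22 collagen genes from day 0 to day 4 differed between the arms by limma's test of the difference, which is why they are listed here. Values are the log2 change in the CF1 chemical arm minus that in the 4-factor arm, each rests on 2 libraries in each of the 4 groups, and the method, the stock of mice and the table cannot be told apart.

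Among fibrillar genes the difference was 4.21 for Col27a1, 2.75 for Col24a1, 1.28 for Col11a2 and 1.16 for Col5a1, and -1.62 for Col5a3. The sign for Col11a2 was fixed by the filter, which it passed through CF1 day 4 alone. Col11a2, Col13a1, Col20a1, Col23a1, Col25a1 and Col26a1 were below the filter in the 4-factor arm, and Col10a1 was below it in the CF1 chemical arm. Those below it in the 4-factor arm passed only through CF1 groups where they were high, which favoured a positive sign. The basement membrane gene Col4a5 differed by -2.18, and the beaded filament genes Col6a1 and Col6a2 by 1.66 and 1.68. Among FACIT genes the values were 1.65 for Col16a1, 1.30 for Col12a1, 1.23 for Col14a1 and 1.18 for Col20a1.

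The hexagonal network genes went both ways, with -4.92 for Col8a1 and -1.26 for Col10a1, and 2.53 for Col8a2. Col7a1 of the anchoring fibrils differed by 2.84. The transmembrane genes Col13a1, Col23a1 and Col25a1 differed by 3.02, 2.80 and 1.69, the multiplexins Col15a1 and Col18a1 by 3.03 and 3.07, and the unclassed gene Col26a1 by 4.54. In absolute size Col8a1 had the largest value.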

How the results depend on the processing

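Of the 15 counts of called members, 14 stayed within 1.5 times on TPM and 14 with a pseudocount of 0.1, and all 15 did with no filter on low values. On 4-factor day 2 the count was 5 on TPM (1 higher, 4 lower), against 3, and in -WS it was 5 with a pseudocount of 0.1 (2 higher, 3 lower), against 3. On TPM the CF1 day 8 split was 10 higher and 10 lower, against 10 and 6, and the -PD split was 1 higher and 2 lower, against 1 and 1. With a pseudocount of 0.1 the -PD split was 2 higher and 1 lower. The median of all genes shifted by -0.16 to 0.06 on TPM.

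Leaving out each library in turn gave counts of 2 to 3 on 4-factor day 2, 9 to 11 on day 4 and 5 to 7 on day 7, and 24 to 25 and 24 to 26 in 4-factor iPSCs against day 0 and day 7. In the CF1 chemical arm they were 20 to 21 on day 4, 15 to 17 on day 8 and 20 to 21 on day 12, and 21 to 22 and 22 to 24 in iPSCs against day 0 and day 12. In the removal experiment they were 2 to 4 in -CHIR, 2 to 5 in -PD, 6 to 8 in -VC and 3 to 4 in -WS, and for the difference between arms 20 to 24. Without CT replicate 1 the -CHIR count was 2 and the -PD count 5 (2 higher, 3 lower). The cause of these shifts was not tested.

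With the replicate number as a block all 15 counts of called members were unchanged, for example 25 in 4-factor iPSCs against day 0 and 22 for the difference. Deviations of same-numbered libraries correlated with r of -0.21 to 0.25 over 30 pairs of groups, and the labels give only numbers, so the numbers were not taken as pairs.

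Of 213 called results of single members, TPM ended 5, no filter ended 2, and a pseudocount of 0.1 or the block ended none. Leaving out a library ended 22 of 2334 calls. Most of these left out a library outside the compared groups, which does not alter the fold change, so the share lost understates the dependence on single libraries. No result changed direction. Counts of all genes moved by over 1.5 times more often: with a pseudocount of 0.1 and on TPM, 4-factor day 2 had 977 and 930 called genes against 543, day 7 had 2578 and 2516 against 1493, -CHIR 258 and 237 against 129, -PD 345 and 293 against 169, -VC 655 and 595 against 309, and -WS 264 and 250 against 121. With 2 libraries per group and no counts, members below 1 FPKM could not be compared.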

Other observations

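The summed levels of 3 further marker lists of 5 genes each are given as values, and their relation to the collagen genes was not tested. Schwann cell and neural crest markers summed to 3.63 to 3.76 FPKM on CF1 day 0, 16.0 to 16.2 on day 4, 2.44 to 2.71 on day 8 and 1.71 to 1.84 on day 12. On day 4, 1 of the 5 was at 1 FPKM or above. Muscle markers summed to 21.1 to 22.1 FPKM on CF1 day 0, 1.51 to 1.54 on day 4, 10.5 to 10.6 on day 8 and 22.3 to 24.2 on day 12, with 1 of the 5 at 1 FPKM or above on each day. Keratinocyte markers summed to 0.331 to 0.481 FPKM on 4-factor day 0, 6.54 to 7.32 on day 2, 5.77 to 7.69 on day 4 and 7.01 to 8.02 on day 7, and to at most 1.36 FPKM in the CF1 chemical arm. Of the 5, 1 was at 1 FPKM or above on 4-factor days 2 and 4, where Krt5, Trp63, Dsg3 and Ivl were below it, and 2 on day 7.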
